A study of Mus musculus with 8 samples.

Results

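The 10 germline genes *Dazl*, *Ddx4*, *Mael*, *Sycp1*, *Sycp3*, *Stk31*, *Tex101*, *Hormad1*, *Asz1* and *Slc25a31* are listed here because each is known to be held silent outside the germ line by methylation of its promoter. The list was drawn up by name, with earlier results of these data known, and of the 48440 genes counted all 10 were found by matching Ensembl identifiers to GENCODE M21. Their RNA was read in 8 poly(A) libraries of mouse embryonic stem (ES) cells, 2 libraries for each of 4 genotypes, all at day 1 of differentiation in N2/B27 medium with the GSK3 inhibitor CHIR99021, after removal of LIF and 2i. Every line was made from MK6 ES cells, which are of the C57BL/6J mouse strain. Wild-type cells carry no edit. In delE6/delE6 cells exon 6 of *Tbxt*, the gene of the mesoderm transcription factor Brachyury, is deleted on both alleles, and in delE6/+ cells on 1 allele. In insASAY cells human AluSx1 and AluY elements were placed in the introns on either side of that exon, on both alleles by the study's methods. The 2 delE6/delE6 libraries come from different clones, so each clone has 1 library; for the other genotypes the number of clones is not given in the sources used here. p-values therefore measure the spread between these libraries only. The exon 6 deletion was made in cells grown without feeders and the insertion in cells grown on mouse embryonic fibroblasts, and by the study's methods the differentiation itself was run without feeders.

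Germ cells protect their genome and prepare for meiosis with proteins that other cells do not use. Their genes often have CpG-rich promoters, which gain DNA methylation when the embryo implants and are then kept off, while a Polycomb complex called PRC1.6, with its DNA-binding subunits E2F6 and MGA/MAX, represses many of them in ES cells. ES cells can carry little DNA methylation in 2i medium and regain it as they differentiate, and such genes can be transcribed at a low level in them. DNA methylation was not measured in these libraries, so every value below is a level of RNA.

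Reads on genes came to 24618587 to 28445952 per library. Levels are given as CPM, the usual library-scaled read count, on library sizes scaled by edgeR's TMM method, and levels of different genes are compared only as CPM per kilobase of exon. The ES cell marker *Pou5f1* was at 156 to 295 CPM, and 9 markers of spermatogenic cells, which include *Tex101*, summed to 52 to 73 reads per library. Of these 9 *Prm1*, *Prm2*, *Acrv1* and *Spata16* had 0 reads in all 8 libraries, which allows up to 3 reads in each, while *Ldhc* had 20 to 42 reads, *Zpbp* 14 to 34, *Acr* 0 to 6 and *Tnp1* 0 to 2. *Zpbp* was called higher in delE6/+ (log2 fold change 1.07, edgeR adjusted p = 0.0191). *Tbxt* itself (symbol *T*) was low, with 22 to 54 reads in a library. Its log2 fold change against wild-type was -0.81 in delE6/delE6 (standard error 0.278, edgeR adjusted p = 0.036), -0.60 in insASAY (0.267, adjusted p = 0.0826) and 0.17 in delE6/+ (0.246, adjusted p = 0.651), and a count per gene cannot show the loss of 1 exon. In 1 edgeR fit of all libraries 17049 genes were tested, and those with a log2 fold change beyond 0.5 in either direction and an adjusted p below 0.05 were called higher or lower. In bulk samples fewer cells with a transcript and less transcript per cell cannot be told apart.

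In GENCODE M21 on GRCm38 the genes of RNA binding and germ granules are *Dazl* at chr17:50279395-50293636 (minus strand), *Ddx4* at chr13:112598333-112652475 (minus strand), *Mael* at chr1:166201201-166238747 (minus strand), *Asz1* at chr6:18050964-18109061 (minus strand) and *Stk31* at chr6:49395604-49469501 (plus strand). The meiotic genes are *Sycp1* at chr3:102818499-102936100 (minus strand), *Sycp3* at chr10:88459569-88473236 (plus strand) and *Hormad1* at chr3:95559677-95587671 (plus strand), and the remaining genes are *Slc25a31* at chr3:40708855-40726096 (plus strand) and *Tex101* at chr7:24668007-24676675 (minus strand). Counts are of reads on their exons.

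All 10 genes had reads in all 8 libraries and passed the filter on low counts. In wild-type cells *Mael*, a piRNA pathway protein, was the most abundant per length, at 22.8 ± 1.93 CPM per kilobase (SD, n = 2), followed by *Sycp3* at 16.2 ± 1.31 and *Ddx4* at 12.5 ± 0.804. Below them came *Stk31* at 6.50 ± 0.373, *Hormad1* at 6.42 ± 0.251, *Dazl* at 5.92 ± 0.366, *Sycp1* at 5.60 ± 0.00992 and *Slc25a31* at 2.33 ± 0.318. *Tex101* at 0.341 ± 0.133 and *Asz1* at 0.239 ± 0.0773 closed the order. The wild-type values of *Stk31* and *Hormad1* overlapped, as did those of *Tex101* and *Asz1*, and no other neighbours in the order did. Averaged over the 8 libraries, *Mael* stood above 81.3% of tested genes per length, *Sycp1* above 52.1%, *Slc25a31* above 37.1% and *Tex101* above 8.35%. Per length 7 of the 10 genes stood above the median tested gene, and *Slc25a31*, *Asz1* and *Tex101* stood below it.

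The promoter windows of the genes are printed because CpG density and the motifs of the repressing complex are what the list is known for. RefSeq windows on GRCm38.p6, from 250 bases before to 50 after the start site, were found for all 10 genes. The 5 genes shown are *Ddx4*, *Mael* and *Sycp1*, whose windows hold both motifs searched, and *Dazl* and *Asz1*, whose windows hold neither. Capitals mark TCCCGC, the core of an E2F-type site, and CACGTG, the E-box of MYC, MAX and MGA, each searched on both strands, so GCGGGA is TCCCGC on the other strand. The motifs do not overlap in any of these windows.
Ddx4, chr13:112652261-112652560, minus strand: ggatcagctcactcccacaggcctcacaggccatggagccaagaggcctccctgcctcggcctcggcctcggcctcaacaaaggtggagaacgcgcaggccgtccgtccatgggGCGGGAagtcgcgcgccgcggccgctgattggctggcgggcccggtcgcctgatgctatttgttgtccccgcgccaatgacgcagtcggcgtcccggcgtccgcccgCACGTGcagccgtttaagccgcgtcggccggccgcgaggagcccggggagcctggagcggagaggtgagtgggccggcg
Mael, chr1:166238695-166238994, minus strand: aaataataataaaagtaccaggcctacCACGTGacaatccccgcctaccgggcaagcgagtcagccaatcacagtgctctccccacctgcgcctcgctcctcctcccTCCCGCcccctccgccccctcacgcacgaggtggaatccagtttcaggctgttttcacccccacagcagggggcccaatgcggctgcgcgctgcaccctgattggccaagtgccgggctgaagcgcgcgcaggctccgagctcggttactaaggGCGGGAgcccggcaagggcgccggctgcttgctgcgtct
Sycp1, chr3:102936051-102936350, minus strand: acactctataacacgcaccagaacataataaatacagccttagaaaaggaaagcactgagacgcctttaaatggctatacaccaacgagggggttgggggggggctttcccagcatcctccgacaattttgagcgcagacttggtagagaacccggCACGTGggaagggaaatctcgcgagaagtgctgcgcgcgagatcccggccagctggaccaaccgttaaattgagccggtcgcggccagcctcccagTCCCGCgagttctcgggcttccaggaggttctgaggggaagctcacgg
Dazl, chr17:50293571-50293870, minus strand: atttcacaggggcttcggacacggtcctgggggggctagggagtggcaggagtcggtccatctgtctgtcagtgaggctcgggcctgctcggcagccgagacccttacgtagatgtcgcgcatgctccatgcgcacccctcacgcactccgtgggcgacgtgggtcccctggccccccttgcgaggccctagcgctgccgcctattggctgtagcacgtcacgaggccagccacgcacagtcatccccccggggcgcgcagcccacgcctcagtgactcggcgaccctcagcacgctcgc
Asz1, chr6:18109012-18109311, minus strand: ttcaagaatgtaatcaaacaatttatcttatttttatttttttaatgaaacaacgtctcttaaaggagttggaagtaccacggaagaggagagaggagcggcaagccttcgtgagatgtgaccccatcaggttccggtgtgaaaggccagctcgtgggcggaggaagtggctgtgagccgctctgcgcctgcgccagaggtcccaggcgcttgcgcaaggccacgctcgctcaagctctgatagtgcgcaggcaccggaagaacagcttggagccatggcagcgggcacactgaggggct

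TCCCGC was found in 6 of the 10 windows (60.0%) and in 20.2% of 27025 genes with a window. CACGTG was found in 7 of 10 (70.0%) and in 7.19% of all. Both together were found in *Ddx4*, *Mael*, *Sycp1*, *Sycp3*, *Hormad1* and *Slc25a31*, 6 of 10, and in 2.07% of all. *Stk31* had the E-box alone, and the windows of *Dazl*, *Asz1* and *Tex101* held neither string of letters. The *Tex101* window lies 4625 bases from the start of the gene in GENCODE, so it may belong to another transcript. The members held 15 to 38 CpG each, with a median of 23 against 7 over all genes, and a median observed over expected CpG of 0.782 against 0.389. Among 52 other germline genes with a window, 30.8% held TCCCGC, 21.2% the E-box and 3.85% both, with a median CpG ratio of 0.558. In the shorter window from 100 bases before the start site 3 of the 10 members held both motifs, against 0.792% of all genes. Both strings hold a CpG, and the members' windows are richer in CpG than those of all genes. The sets were not matched for CpG, so the motif shares are not separated from it. These are matches of letters in 1 window per gene, and binding was not measured.

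**Figure D1:**
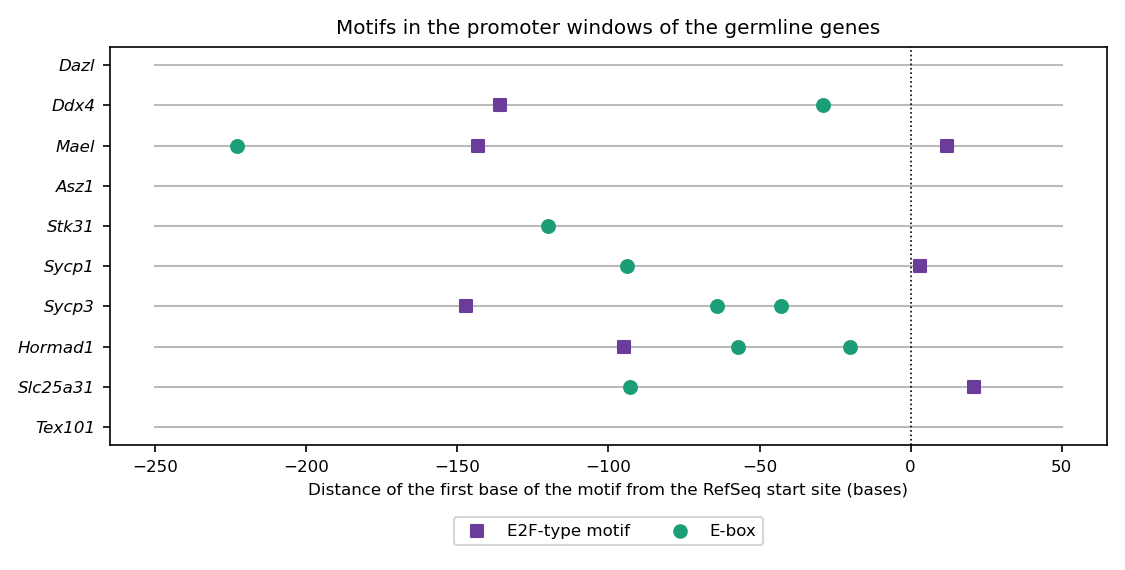
Motif positions in the promoter windows of the 10 germline genes, as the distance in bases of the first base of each match from the RefSeq start site. Squares are E2F-type motifs and circles are E-boxes; the grey line is the window, from 250 bases before to 50 after the start, and 3 genes have neither.

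The first comparison asks how RNA differs where *Tbxt* exon 6 is lost from both alleles. In delE6/delE6 cells 5 of the 10 genes fell and none rose, where 6.59% of all tested genes were called lower and 6.12% higher. The fallen genes were *Dazl*, *Ddx4*, *Mael* and *Stk31*, which act on RNA or in germ granules, and the meiotic gene *Sycp1*, at 0.570 to 0.691 times the wild-type level as fitted. Fitted fold changes of the 10 were negative in 10 of 10, with a median of -0.48 on the log2 scale against -0.01 over all tested genes.

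Among the genes of RNA binding and germ granules, *Dazl*, an RNA-binding protein needed for germ cell development, had 21.6 and 23.6 CPM in wild-type libraries and 18.1 and 11.0 CPM in delE6/delE6 libraries (log2 fold change -0.64, standard error 0.161, edgeR adjusted p = 0.00816). *Ddx4*, the RNA helicase Vasa, had 36.0 and 39.4 CPM in wild-type and 29.5 and 22.7 CPM in delE6/delE6 (-0.53, 0.100, adjusted p = 0.00161). *Mael*, which acts in transposon silencing by piRNAs, had 41.8 and 37.1 CPM and then 30.9 and 18.1 CPM (-0.69, 0.163, adjusted p = 0.0058). In each of these genes both edited libraries lay below both wild-type libraries, as in 34.3% of all tested genes, and clone 2 was the lowest. *Stk31*, a Tudor-domain protein with a kinase-like domain, had 20.2 and 21.9 CPM in wild-type and 16.8 and 11.2 CPM in delE6/delE6 (-0.59, 0.141, adjusted p = 0.00621). *Asz1*, a mitochondrial scaffold protein of the piRNA pathway, had only 23 and 14 reads in wild-type and 19 and 14 reads in delE6/delE6. Its groups overlapped, with a log2 fold change of -0.09 (95% interval -0.88 to 0.70, adjusted p = 0.867).

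Among the meiotic genes, *Sycp1*, the transverse filament of the synaptonemal complex, had 19.9 CPM in each wild-type library and 14.0 and 8.76 CPM in delE6/delE6 (log2 fold change -0.81, standard error 0.156, edgeR adjusted p = 0.00182), which was the largest fall of the 10 genes. *Sycp3*, a lateral element protein of the same complex, had 19.3 and 21.7 CPM in wild-type and 18.8 and 12.8 CPM in delE6/delE6. Both edited libraries lay below both wild-type libraries, as in 34.3% of all tested genes. The log2 fold change of *Sycp3*, -0.38, was under the threshold (edgeR adjusted p = 0.0482). *Hormad1*, which marks unsynapsed chromosome axes, had 11.4 and 10.8 CPM and then 11.1 and 6.31 CPM (-0.36, 95% interval -0.79 to 0.06, adjusted p = 0.17). Clone 1 lay between the wild-type libraries and clone 2 below both. *Slc25a31*, an ADP/ATP carrier of male germ cell mitochondria, had 4.48 and 5.43 CPM in wild-type and 4.82 and 2.68 CPM in delE6/delE6 (-0.41, adjusted p = 0.186). *Tex101*, a surface glycoprotein of male germ cells, had 20 and 11 reads and then 12 and 10 reads (-0.42, 95% interval -1.32 to 0.48, adjusted p = 0.46). Neither group separated from wild-type, and with so few reads the interval of *Tex101* spans changes in both directions.

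**Figure D2:**
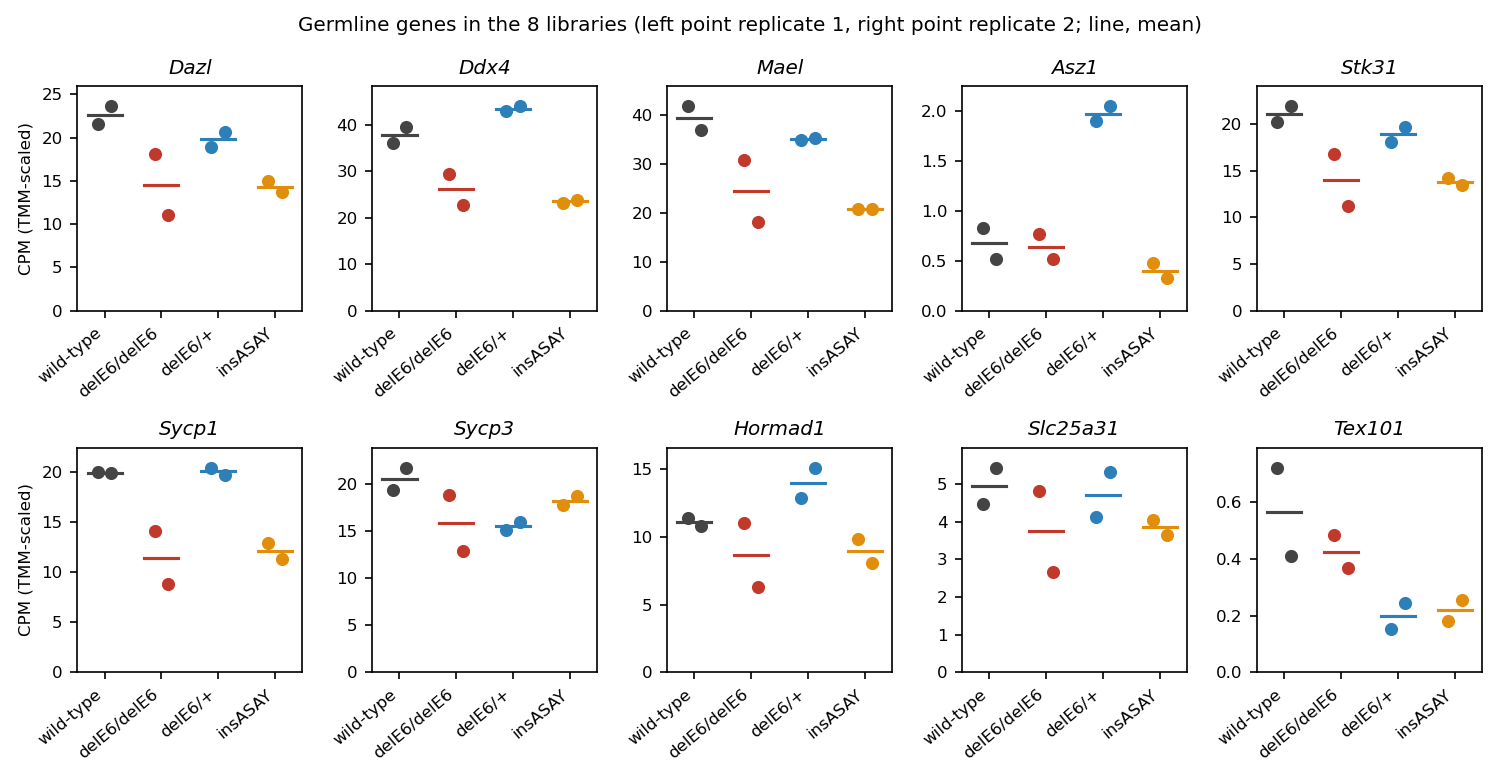
CPM of each germline gene in the 8 libraries, 1 panel per gene with its own axis from 0. Points are libraries (replicate 1 left, replicate 2 right) and lines are genotype means; the delE6/delE6 pair is the widest in all panels but *Asz1* and *Tex101*, and the delE6/+ pair of *Asz1* stands above the rest.

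Apart from *Asz1* and *Tex101*, the 10 genes varied most within a genotype between the delE6/delE6 libraries. Clone 2 was lower than clone 1 in 10 of 10 genes, with ratios of CPM from 0.556 for *Slc25a31* to 0.771 for *Ddx4* and a median of 0.646. The ratio was 0.585 for *Mael* (exact 95% interval 0.521 to 0.655, covering counting error only) and 0.624 for *Sycp1* (0.527 to 0.738), and the intervals of *Tex101* and *Asz1* include 1. Over the tested genes with at least 10 reads in both clones the median ratio was 1.00, and 3.23% of them were at or below 0.646. Between the replicates of the other genotypes the median ratio of the 10 genes was 1.04 in wild-type, 0.931 in insASAY and 1.08 in delE6/+. As a share of the wild-type mean the median of the 10 genes was 83.0% in clone 1 and 55.4% in clone 2. In clone 1, 6 of the 10 genes lay below both wild-type libraries, and in clone 2 all 10 did, while 42.2% and 45.1% of all tested genes did so. With 1 library per clone the clones were not tested against each other.

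**Figure D3:**
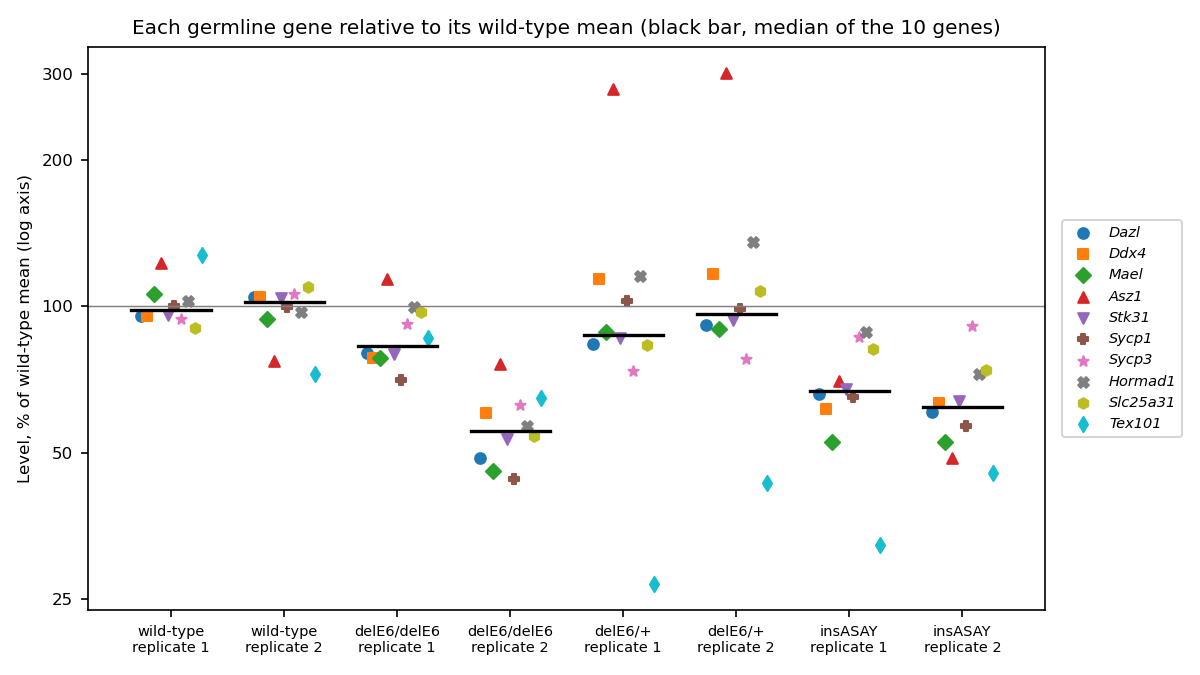
Level of each germline gene in each library as a percentage of its wild-type mean, on a log axis. Symbols are genes and black bars are the medians of the 10 genes, which run from 55.4% in the second delE6/delE6 library to 102% in the second wild-type library.

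Counts of calls moved with the libraries used. With clone 2 left out, 1 of the 10 genes was called lower against wild-type, *Sycp1*, where 3.44% of all tested genes were called lower. With clone 1 left out 8 were, where 9.81% of all tested genes were. *Dazl*, for example, had a log2 fold change of -0.32 with clone 1 alone (edgeR adjusted p = 0.0186), and *Mael* -0.35 (adjusted p = 0.00251), both under the fold threshold but in the same direction. Leaving out the second wild-type library left 2 calls (4.65% of all tested genes lower) and leaving out the first left 4 (4.62%), with *Mael* no longer called (-0.60, adjusted p = 0.0604). The lone library of an arm is assumed in these fits to vary like the other groups.

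The second comparison asks how RNA differs in cells that carry the Alu insertions in place of the deletion. In insASAY cells 6 of the 10 genes fell and none rose, where 9.85% of all tested genes were called lower and 11.5% higher. Those that fell were *Dazl*, *Ddx4*, *Mael*, *Stk31*, *Sycp1* and *Tex101*. In all 10 genes both insASAY libraries lay below both wild-type libraries, as in 38.5% of all tested genes, and the median log2 fold change was -0.67 against -0.01 over all. The 2 libraries were close to each other, with medians of 66.8% and 61.9% of the wild-type mean.

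The largest fall with ample reads was that of *Mael*, at 20.8 CPM in each insASAY library (log2 fold change -0.93, standard error 0.165, edgeR adjusted p = 0.00056). *Ddx4* had 23.2 and 23.9 CPM (-0.68, 0.101, adjusted p = 0.000147), *Dazl* 14.9 and 13.7 CPM (-0.66, 0.160, adjusted p = 0.00442) and *Stk31* 14.2 and 13.4 CPM (-0.61, 0.140, adjusted p = 0.00327). These genes of RNA binding and germ granules thus lay at 0.526 to 0.657 times the wild-type level as fitted. *Sycp1* fell to 12.9 and 11.3 CPM (-0.72, 0.153, adjusted p = 0.00194), while the other meiotic genes were not called: *Sycp3* had 17.7 and 18.7 CPM (-0.17, adjusted p = 0.323) and *Hormad1* 9.84 and 8.05 CPM (-0.31, adjusted p = 0.21). *Slc25a31* had 4.04 and 3.66 CPM (-0.36, adjusted p = 0.215) and *Asz1* 13 and 9 reads (-0.75, 95% interval -1.60 to 0.11, adjusted p = 0.137). *Tex101* had 5 and 7 reads against 20 and 11 in wild-type (-1.35, standard error 0.476, adjusted p = 0.0303). That call of *Tex101* was lost when the first wild-type library was left out (-0.89, adjusted p = 0.281) or either insASAY library was, and with unstranded counts (-1.08, adjusted p = 0.0696), and DESeq2 gave it no adjusted p.

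**Figure D4:**
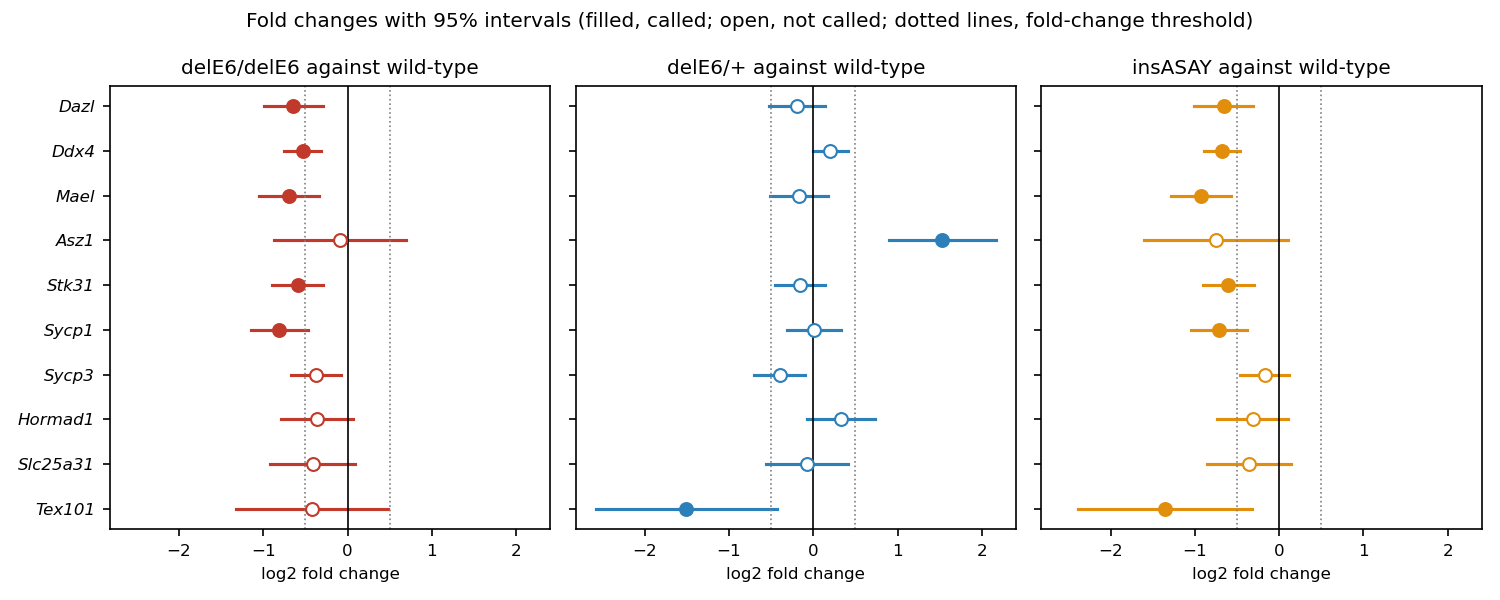
Log2 fold changes of the 10 germline genes against wild-type in the 3 edited lines, with 95% intervals from the edgeR fit. Filled points passed both thresholds (5 lower in delE6/delE6, 1 higher and 1 lower in delE6/+, 6 lower in insASAY), and dotted lines mark the fold-change threshold of 0.5.

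The third comparison asks how RNA differs when 1 allele lacks exon 6. In delE6/+ cells *Asz1* rose and *Tex101* fell, where 6.60% of all tested genes were called higher and 6.89% lower, and the other 8 genes were not called. The median log2 fold change of the 10 genes was -0.11 against -0.00059 over all tested genes, and their medians as a share of wild-type were 87.1% and 96.2% in the 2 libraries. The call of *Asz1* held in each fit in which it was tested.

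*Asz1* had 50 reads in each delE6/+ library against 23 and 14 in wild-type, or 1.89 and 2.04 CPM against 0.830 and 0.521 (log2 fold change 1.53, standard error 0.295, edgeR adjusted p = 0.00149), the highest levels of the gene in any library. *Tex101* had 4 and 6 reads (-1.51, 0.497, adjusted p = 0.0322), with 95% Poisson intervals of 1.09 to 10.2 and 2.20 to 13.1 reads, so this call rests on few reads. It was lost without the first wild-type library or either delE6/+ library, and with unstranded counts (adjusted p = 0.0622). *Sycp3* had 15.1 and 15.9 CPM, below both wild-type libraries, as in 34.9% of all tested genes. Its log2 fold change of -0.40 was under the threshold (edgeR adjusted p = 0.0413). Its exons overlap those of *Chpt1* on the other strand, which had 617 to 785 reads per library, and counts without regard to strand drop reads of the overlap. On those counts the change of *Sycp3* was -0.55 (adjusted p = 0.00909).

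The remaining genes did not pass the test in delE6/+ cells. *Dazl* had 18.9 and 20.6 CPM (log2 fold change -0.19, 95% interval -0.53 to 0.14), *Mael* 34.9 and 35.4 CPM (-0.17, -0.51 to 0.17) and *Stk31* 18.1 and 19.7 CPM (-0.16, -0.45 to 0.14). *Ddx4* had 42.9 and 43.9 CPM (0.20, -0.01 to 0.41), above both wild-type libraries, as in 34.4% of all tested genes. *Slc25a31* had 4.13 and 5.31 CPM (-0.07, -0.56 to 0.42). All of these intervals include 0.

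Of the 10 genes *Sycp1*, *Hormad1* and *Slc25a31* lie on chromosome 3, many genes of which were higher in delE6/+ cells, with a median log2 fold change of 0.32 to 0.33 over the chromosome's other tested genes. *Sycp1* had 20.4 and 19.7 CPM in delE6/+ cells, a log2 fold change of 0.01, while the 82 tested genes within 5 Mb had a median of 0.44, with 34 called higher and 1 lower. *Hormad1* had 12.8 and 15.1 CPM and a log2 fold change of 0.33 (95% interval -0.08 to 0.73) beside a median of 0.37 over 131 genes. *Slc25a31* at -0.07 stood beside a median of 0.04 over 41 genes. The other members had neighbours with medians of -0.14 to 0.14 in delE6/+, and *Asz1* at 1.53 stood beside a median of 0.09 over 24 genes, of which 2 were called higher. In delE6/delE6 and insASAY cells the genes around every member had medians between -0.14 and 0.23. The part of the chromosome 3 shift in the values of these members was not tested.

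**Figure D5:**
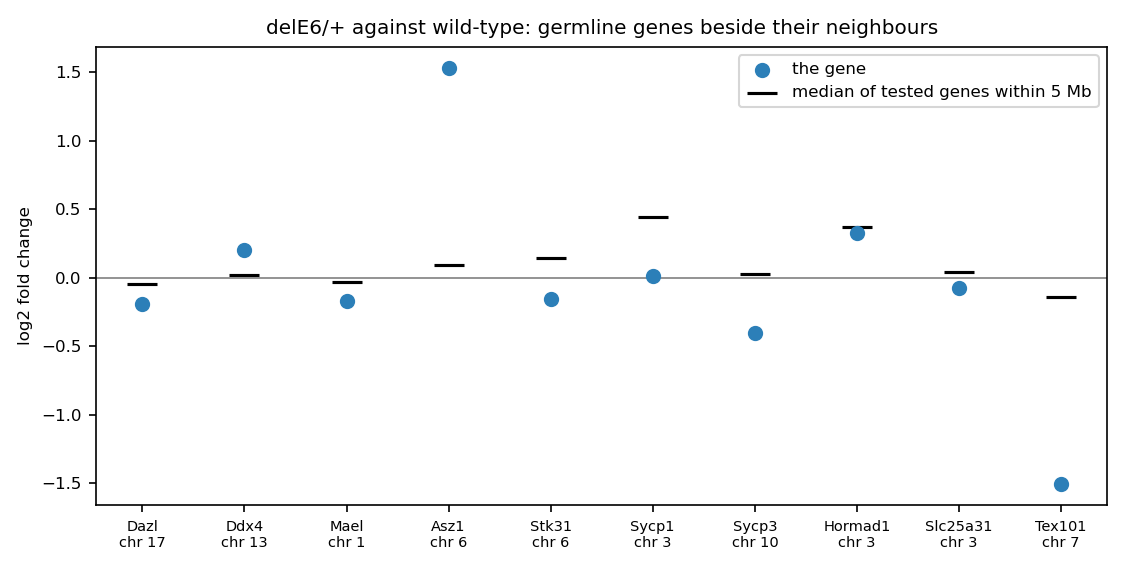
Log2 fold change of each germline gene in delE6/+ against wild-type (points) beside the median of the tested genes within 5 Mb on either side (bars), with the chromosome under each name. The medians around *Sycp1* and *Hormad1* on chromosome 3 are 0.44 and 0.37, and the other 8 lie between -0.14 and 0.14.

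The edited lines were also compared with each other; these comparisons share libraries with those above. Between delE6/+ and delE6/delE6, 5 of the 10 genes were higher in delE6/+ and none lower, where 11.2% of all tested genes were called higher and 11.0% lower. They were *Ddx4* (log2 fold change 0.74, standard error 0.0997, edgeR adjusted p = 6.13e-05), *Sycp1* (0.82, 0.157, adjusted p = 0.000872), *Hormad1* (0.69, 0.195, adjusted p = 0.0104), *Mael* (0.53, 0.165, adjusted p = 0.0191) and *Asz1* (1.62, 0.302, adjusted p = 0.000708). *Dazl* at 0.45 and *Stk31* at 0.44 had adjusted p-values of 0.0382 and 0.0238 but were under the fold threshold. The count was 8 without clone 1 (13.0% of all tested genes higher), 3 without clone 2 (8.44%) and 3 without the second delE6/+ library (9.08%). The chromosome 3 shift runs through this comparison too, with a median of 0.46 over the 82 genes around *Sycp1* (29 called higher and 4 lower) and 0.36 over the 131 around *Hormad1* (42 higher and 10 lower). *Sycp1* stood 0.36 and *Hormad1* 0.33 above these medians, and the part of the shift in the 2 calls was not tested. The call of *Mael* was lost under DESeq2 (0.52, adjusted p = 0.113), without clone 2 or without either delE6/+ library, and that of *Hormad1* without clone 2 or the second delE6/+ library.

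Between insASAY and delE6/delE6 none of the 10 genes was called by edgeR or by DESeq2, and 0 had an unadjusted p under 0.05, where 2.79% of all tested genes were called higher and 2.38% lower. Fitted differences were small for *Dazl* (-0.02, 95% interval -0.38 to 0.34), *Stk31* (-0.01, -0.33 to 0.30) and *Sycp1* (0.09, -0.26 to 0.45), and *Mael* had -0.23 (-0.60 to 0.14). Each of these intervals holds values in both directions. The fitted values moved with the clone left out. Without clone 1 they were 0.36 for *Dazl*, 0.29 for *Stk31* and 0.19 for *Mael*. Without clone 2 they were -0.22 for *Sycp1* and -0.58 for *Mael*.

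Between insASAY and delE6/+, 5 of the 10 genes were lower in insASAY and none higher, where 13.0% of all tested genes were called lower and 14.6% higher. They were *Ddx4* (log2 fold change -0.88, standard error 0.100, edgeR adjusted p = 1.17e-05), *Mael* (-0.76, 0.167, adjusted p = 0.00196), *Sycp1* (-0.73, 0.154, adjusted p = 0.00152), *Hormad1* (-0.64, 0.192, adjusted p = 0.0132) and *Asz1* (-2.28, 0.328, adjusted p = 7.61e-05). The genes around *Sycp1* had a median of -0.37 here (28 of 82 called lower) and those around *Hormad1* -0.28 (37 of 131), and each gene differed from its neighbours' median by -0.36. *Tex101*, whose lowest levels were in these lines, had a difference of 0.15 with a 95% interval from -1.17 to 1.48. *Sycp3* went the other way, at 0.23 (adjusted p = 0.183). The call of *Hormad1* was lost without the second library of either line.

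Other germline genes show whether the 10 stand alone. A list of 64 was drawn up from the piRNA pathway, meiosis, germ cell regulators and late germ cell genes, and 58 were tested. In delE6/delE6 cells 14 of the 58 fell and 2 rose (median log2 fold change -0.40), in insASAY cells 16 fell and 5 rose (-0.23), and in delE6/+ cells 8 fell and 6 rose (-0.04). Of all tested genes 6.59% fell and 6.12% rose in delE6/delE6, 9.85% and 11.5% in insASAY, and 6.89% and 6.60% in delE6/+. Of 15 tested piRNA and germ granule genes 4 fell and 0 rose in delE6/delE6, 5 fell and 1 rose in insASAY, and 3 fell and 1 rose in delE6/+. Of 22 meiotic chromosome and recombination genes 6 fell and 1 rose in delE6/delE6, 6 fell and 1 rose in insASAY, and 1 fell and 3 rose in delE6/+. Among 8 germ cell regulators 2 fell in each edited line, and 1 rose in delE6/+ alone. Among 13 genes of germ cell metabolism, structure and others, 3 fell and 3 rose in insASAY. In delE6/delE6 and in delE6/+ 2 of these 13 fell and 1 rose. The delE6/delE6 count moved with the libraries used, with 28 of 61 tested genes called when clone 1 was left out (9.81% of all tested genes lower and 9.36% higher) and 5 of 58 when clone 2 was (3.44% and 3.09%), a share near that of all genes. It was 10 of 58 without the first wild-type library (4.62% and 4.40%), 10 of 58 without the second (4.65% and 4.47%) and 8 of 64 by DESeq2 (2.52% and 3.12%). For delE6/+ it was 9 of 58 without the first wild-type library (5.62% and 5.11%).

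The genes of that list with the smallest adjusted p-values moved in both directions. *Tdrd12*, a Tudor-domain protein of the piRNA pathway, was at 31.6 ± 1.62 CPM (SD, n = 2) in wild-type, 14.5 ± 2.83 in delE6/delE6, 18.7 ± 0.822 in insASAY and 15.1 ± 2.32 in delE6/+, with log2 fold changes of -1.13, -0.76 and -1.07 and edgeR adjusted p-values of 7.1e-05, 0.000234 and 2.94e-05. *Piwil2*, a piRNA-binding protein, had fold changes of -0.71, -0.87 and -0.16 in that order (adjusted p = 0.00305, 0.000411 and 0.426), and *Pld6*, a mitochondrial nuclease of piRNA biogenesis, -0.91, -0.66 and 0.26 (adjusted p = 0.000379, 0.00118 and 0.133). *Smc1b*, the meiotic cohesin subunit, was at 21.7 ± 1.16 CPM in wild-type, 11.3 ± 5.96 in delE6/delE6, 6.63 ± 0.562 in insASAY and 32.8 ± 1.45 in delE6/+ (-0.95, -1.71 and 0.60). All 3 of these changes of *Smc1b* were called. By contrast *Dmc1*, the meiotic recombinase, rose in delE6/delE6 (0.65, adjusted p = 9.43e-05) and insASAY (0.78, adjusted p = 6.75e-06) and had 0.15 in delE6/+ (adjusted p = 0.174). The delE6/+ cells were lower in *Dmrt1*, a transcription factor of the germ line and testis (-0.69, adjusted p = 2.2e-07), *Taf7l*, a germ cell form of a TFIID subunit (-1.07, adjusted p = 2.87e-07), and *Tex19.1* (-0.77, adjusted p = 1.87e-06). *Tex19.1* rose in insASAY (0.53, adjusted p = 2.19e-05, and 0.47 without the first insASAY library), and *Xlr3a* fell there (-1.65, adjusted p = 8.17e-06).

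The enzymes that write and erase DNA methylation were described from a list of 15, of which 14 were tested. Against wild-type 1 was higher and 2 lower in each of the 3 edited lines. Of all tested genes 6.12% were called higher and 6.59% lower in delE6/delE6, 11.5% and 9.85% in insASAY, and 6.60% and 6.89% in delE6/+. With 14 genes tested, counts this small are not set apart from that background in any line. *Dnmt1*, which copies methylation after replication, had log2 fold changes of 0.16 in delE6/delE6, 0.20 in insASAY and 0.31 in delE6/+, and its partner *Uhrf1* 0.12, 0.20 and 0.11. The de novo enzymes *Dnmt3a* (-0.09, 0.18 and -0.06) and *Dnmt3b* (-0.08, 0.14 and 0.22) were also within the fold threshold in every line. *Dnmt3l*, the cofactor of the de novo enzymes, was at 272 ± 23.1 CPM (SD, n = 2) in wild-type and fell in delE6/+ to 162 ± 4.51 (-0.75, edgeR adjusted p = 0.000372), with -0.27 in delE6/delE6 and -0.45 in insASAY. Without clone 1 the delE6/delE6 change of *Dnmt3l* was -0.56 and called (adjusted p = 7.43e-08), without clone 2 it was -0.03, and without the first wild-type library the insASAY change was -0.53 and called (adjusted p = 0.0151). *Dppa3*, which holds back maintenance methylation by binding UHRF1, fell in each line, from 38.5 ± 0.601 CPM to 17.6 ± 5.26 in delE6/delE6 (-1.14, adjusted p = 0.000113), 25.3 ± 0.0242 in insASAY (-0.61, adjusted p = 0.00196) and 15.3 ± 0.797 in delE6/+ (-1.34, adjusted p = 1.17e-05). *Tet2*, which oxidises methylcytosine, fell in delE6/delE6 (-0.75, adjusted p = 0.00171) and insASAY (-0.70, adjusted p = 0.00131) and rose in delE6/+ (0.71, adjusted p = 0.00106). *Tet3* rose in delE6/delE6 (0.60, adjusted p = 0.00074) and insASAY (0.63, adjusted p = 0.000222) and had 0.49 in delE6/+. Without clone 2 the delE6/delE6 changes of *Tet2* (-0.48) and *Tet3* (0.46), and that of *Piwil2* (-0.40), were under the fold threshold, and *Tet3* was also under it without the second wild-type library (0.498).

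Of 22 genes of the repressing machinery, 14 of PRC1.6 and 8 of histone methylation and its partners, none was called in delE6/delE6, 2 were in delE6/+ and 1 in insASAY, where 6.59%, 6.89% and 9.85% of all tested genes were called lower and 6.12%, 6.60% and 11.5% higher, so these counts are not above that background. In delE6/+ *Setdb1*, an H3K9 methyltransferase, rose (0.51, edgeR adjusted p = 1.03e-05, but not called on unstranded counts, without the second wild-type library or without the second delE6/+ library, at 0.4992, 0.49 and 0.45) and *Zfp57*, a zinc finger protein of imprinted loci, fell (-0.62, adjusted p = 0.000421). *Zfp57* also fell in insASAY (-0.57, adjusted p = 0.000488). No PRC1.6 gene was called in any edited line against wild-type. Calls leave out smaller changes. Of the 8 genes of histone methylation and its partners, 7 lay below both wild-type libraries in delE6/delE6 and 0 above. It was 4 and 2 in insASAY and 2 and 4 in delE6/+. For the 14 of PRC1.6 it was 3 and 8, 3 and 9, and 5 and 6 in that order. Of all tested genes 34.3% and 33.3% did so in delE6/delE6, 38.5% and 38.4% in insASAY, and 34.9% and 34.4% in delE6/+.

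Some markers of cell types and states were called as well, to be read beside the 6.59% of all tested genes called lower and 6.12% higher in delE6/delE6, 9.85% and 11.5% in insASAY, and 6.89% and 6.60% in delE6/+. Of 10 ES cell markers 5 were lower in delE6/delE6, 3 in insASAY and 6 in delE6/+, where 1 was higher. Their summed level was 1254 to 1289 CPM in wild-type, 825 in clone 1 and 644 in clone 2 of delE6/delE6. It was 859 to 904 in insASAY and 723 to 727 in delE6/+. These sums are carried mainly by *Dppa5a* (544 CPM in wild-type and 200 in delE6/delE6) and *Pou5f1* (288 and 185). Fitted changes in delE6/delE6 were negative in 8 of the 10. Of 10 primordial germ cell markers 6 were lower in delE6/delE6, 4 in insASAY (1 higher) and 2 in delE6/+. They include *Dazl* and *Ddx4* and genes of the other lists above such as *Dppa3*, so these counts partly repeat values given there. The summed level of the 10 was 221 to 229 CPM in wild-type, 142 to 172 in delE6/delE6, 169 to 176 in insASAY and 202 to 205 in delE6/+. Of 8 tested markers of 2-cell-like cells 7 were lower in delE6/delE6 and in delE6/+ and 2 were higher in insASAY. Sums over the 9 listed were 15.9 to 16.6 CPM in wild-type and 8.18 to 8.38 in delE6/delE6. They were 19.9 to 21.7 CPM in insASAY and 6.58 to 7.0 in delE6/+. Of 6 markers of the formative and primed states 1 was higher in delE6/delE6, 2 in insASAY and 2 in delE6/+, and none was lower. Their sums were 287 to 293 CPM in wild-type, 295 to 309.9 in delE6/delE6, 341 to 353 in insASAY and 368 to 369 in delE6/+. Most of each sum is *Dnmt3b*, at 230 CPM in wild-type and 268 in delE6/+. Fitted log2 fold changes of the 6 in delE6/+ ran from -2.13 to 1.58. Of 8 primitive streak markers, which include *T*, 5 were tested. Of these 1 was higher and 1 lower in delE6/delE6, 1 higher in insASAY, and 1 higher and 1 lower in delE6/+. Sums over all 8 were 17.8 to 19.5 CPM in wild-type, 24.3 to 24.5 in delE6/delE6, 18.4 to 21.7 in insASAY and 12.2 to 14.8 in delE6/+. *Eomes* is the largest part, at 14.0, 20.4, 15.8 and 7.25 CPM in that order. Fitted log2 fold changes of the 5 ran from -0.81 to 1.55 in delE6/delE6 and from -0.95 to 0.90 in delE6/+. With lists this short, counts of 1 are no more than a description. Of 10 markers of fibroblasts, the cell type of feeder layers, 7 were tested, of which 4 were lower in delE6/delE6, 6 in insASAY and 1 in delE6/+, where 3 were higher, with sums over all 10 of 79.0 to 85.8, 46.1 to 54.8, 43.1 to 44.4 and 109 to 111 CPM in wild-type, delE6/delE6, insASAY and delE6/+. Among the 3 fibroblast markers too low to be tested *Postn* had 0 reads in both insASAY libraries and 1 or 2 in the others, and *Lum* 0 to 6 reads. The part of these markers in the levels of the 10 genes was not tested.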

How the data were processed

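RNA was extracted by the authors from 8 cultures, poly(A)-selected and made into stranded libraries (NEBNext Ultra II Directional). Per the labels, reads were aligned by the authors with STAR 2.7.2a against mm10, and they deposited its raw count of reads on each gene, whole numbers with no normalization or filter; DESeq2 1.40.2 is also named in the submitters' processing notes. Each gene has 3 counts. Those of the second-read strand were used, since the other strand held 4.11% to 4.78% of stranded reads. STAR's 4 summary lines, in 7 of the 8 files, stayed out of library sizes and tests; reads on no gene were 26.2% to 29.0% of the total in those files.

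Of 48440 identifiers 48058 were matched to a symbol in GENCODE M21 (GRCm38, the build of mm10). Counts were fitted with edgeR 4.0.16 in R 4.3.3 (TMM, filterByExpr at its defaults of 10 for the count and 15 for the total, quasi-likelihood test, 1 coefficient per genotype over all 8 libraries), and p-values were adjusted by Benjamini-Hochberg over 17049 tested genes. All adjusted p-values in the report are from this fit unless another fit is named. The steps were tested on simulated counts. Promoter sequences are RefSeq's (GRCm38.p6). Python 3.11.15, pandas 2.3.3 and matplotlib 3.10.9 made tables and plots. Depth limits the genes with few reads, and Poisson and binomial intervals cover counting error only.

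Alternatives were DESeq2 1.42.0 (Wald test), DESeq2's size factors, no filter, at least 10 reads in each of the libraries, counts without strand, a fit of 2 groups alone, a replicate block, TMM without chromosome 3, adjusted p only, a shorter promoter window, and leaving out each library. Their use for named genes outside the 10 was added after seeing the data. The 10 genes, the lists and the markers were chosen with earlier results of these data known. All 10 genes and *Tbxt* are named, of each other list up to 4 genes per comparison with wild-type with the smallest adjusted p among those called, and 6 DNA methylation genes whatever their values. *Pou5f1*, *Dppa5a*, *Eomes*, *Lum*, *Postn* and the spermatogenic markers were named after their values were seen.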

Additional observations from a re-analysis of the deposited data

How the results depend on the processing

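Counts of the 10 genes called moved by no more than 1.5 times in 52 of 54 alternatives other than leaving out a library. The exceptions concern delE6/+ against wild-type, where 2 genes were called in the reported fit. DESeq2, which gave *Tex101* no adjusted p, called 1 (3.15% of 27566 genes with a read higher and 3.22% lower). With at least 10 reads in every library, a filter that removes *Asz1* and *Tex101*, 0 of 8 tested genes were called (6.79% and 7.17%). Leaving out each library gave 1 to 8 calls for delE6/delE6 against wild-type (5 reported) and 1 to 2 for delE6/+ against wild-type. It gave 3 to 8 for delE6/+ against delE6/delE6 (5 reported) and 0 to 1 for insASAY against delE6/delE6 (0 reported). The share of all tested genes called moved as well. For delE6/delE6 against wild-type 3.44% were lower in the fit with 1 call and 9.81% in the fit with 8. For delE6/+ against delE6/delE6 8.44% and 9.08% were higher in the fits with 3 calls and 13.0% in the fit with 8. For delE6/+ against wild-type 4.97% to 5.33% were higher and 4.85% to 5.62% lower. For insASAY against delE6/delE6 3.67% were lower in the fit with 1 call. The cause was not tested.

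No member's fold change changed direction under the other alternatives, and 24 of 240 did when a library was left out, all of values that were not called. The ranges of these log2 fold changes were as follows. Against wild-type they were -0.76 to 0.0496 for *Tex101* and -0.39 to 0.29 for *Asz1* in delE6/delE6, and -0.0182 to 0.0330 for *Sycp1* and -0.26 to 0.10 for *Slc25a31* in delE6/+. For delE6/+ against delE6/delE6 they were -0.28 to 0.27 for *Sycp3* and -0.0366 to 0.81 for *Slc25a31*. For insASAY against delE6/delE6 they were -0.34 to 0.36 for *Dazl*, -0.33 to 0.0350 for *Ddx4*, -0.58 to 0.19 for *Mael*, -0.22 to 0.45 for *Sycp1*, -0.0504 to 0.49 for *Sycp3*, -0.28 to 0.29 for *Stk31*, -0.31 to 0.49 for *Hormad1* and -0.32 to 0.51 for *Slc25a31*. For insASAY against delE6/+ the range for *Tex101* was -0.16 to 0.52.

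The replicate numbers do not pair the libraries, since deviations of same-numbered libraries correlated at -0.104 to 0.0651 over 12837 genes. With the replicate number as a block the counts of calls were 5, 2 and 6 for delE6/delE6, delE6/+ and insASAY against wild-type, and 5, 0 and 5 for delE6/+ against delE6/delE6, insASAY against delE6/delE6 and insASAY against delE6/+, each equal to the reported count.

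Counts without regard to strand lowered *Sycp3* to 10.1 CPM in wild-type. In the list of other germline genes DESeq2, which was given no filter, called 8 of 64 in delE6/delE6 (16 of 58 reported). There it called 2.52% of 27566 genes with a read lower and 3.12% higher. In delE6/+ it called 8 of 64 (14 of 58 reported), with 3.22% and 3.15% of the 27566. DESeq2's counts and shares, here and above, take genes without an adjusted p as not called. The edgeR shares are of 17049 genes, so the backgrounds are not alike. Without the fold threshold edgeR called 27 of 58 in delE6/delE6 and 22 of 58 in delE6/+. The share of all tested genes on adjusted p alone is not given here, so these counts are not set against a background. *Tex101* and *Asz1*, with 4 to 50 reads per library, are the members whose precision depth limits most.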
